A study of Mus musculus with 21 samples.

Results

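The genes described here encode the elastic fibre and the enzymes that cross-link it: Eln, Lox, Loxl1, Loxl2, Fbn1, Fbln2, Fbln5, Ltbp2, Mfap2 and Mfap5 in mouse lung. They were taken by name, as every probe set annotated to 1 of those 10 genes, which gave 13 of the 22626 non-control probe sets on the array. Of these, 12 carried 1 symbol only and belonged to 8 of the 12393 genes with such a probe set, and 11 were bright enough to be tested. The remaining member probe set was annotated to both Loxl2 and Gm21451, so no value below is given to Loxl2 alone, and Fbn1 is not analysed here.

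Elastic fibres give the lung its recoil. Tropoelastin, the product of Eln, is laid down on a scaffold of fibrillin microfibrils, which carry the microfibril-associated glycoproteins (Mfap2 and Mfap5) and latent TGF-beta binding proteins such as Ltbp2. Fibulin 5 (Fbln5) brings tropoelastin and lysyl oxidases to the scaffold, fibulin 2 (Fbln2) is another fibre-associated glycoprotein, and the copper enzymes Lox and Loxl1 join the chains by oxidising their lysines. Most fibre is made during lung growth, and renewed expression of these genes is a known feature of scarring lung.

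RNA of the whole right lung was measured on 21 one-colour Affymetrix arrays, each of which held a pool of 3 to 5 mice of 1 sex from the inbred strains C57BL/6, C3H/HeJ or A/J. Treated mice had received bleomycin, a DNA-breaking antitumour drug that injures the lung, from an osmotic minipump. The C57BL/6 pools were moribund mice (n = 2), 6 weeks (n = 1, a female pool at 125 mg/kg), 3 weeks (n = 2) and control (n = 2). The C3H/HeJ pools were 6 weeks, 3 weeks and control (n = 2 each), and the A/J pools were 6 weeks (n = 2), 3 weeks (n = 4) and control (n = 2). Treated males had received 100 and treated females 125 mg/kg, so sex and dose cannot be told apart, except in A/J at 3 weeks, where further pools of males at 80 mg/kg and of females at 100 mg/kg were measured. The time after dosing is not stated for the moribund mice. Neither the ages nor what the control mice received are given in the labels.

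Deposited array medians ran from 58.55 to 111.3, a ratio of 1.90, so the values were quantile normalized, and all levels below are normalized intensities. The Gapdh control spots, whose 3′ to 5′ signal ratio reflects RNA quality, gave ratios of 0.770 to 2.08, with the maximum in the C3H/HeJ female pool at 6 weeks. Surfactant and other type 2 alveolar cell markers, the check of the tissue, summed to between 13818 and 19768 on every array. A change is a difference of log2(intensity + 16), with its standard error, and a gene is called at an adjusted p under 0.05 in a limma fit over 15084 probe sets with sex as a term. Each array is a pool, and no group holds replicate pools of the same sex and dose. The p-values thus rest on differences between a group's pools that remain after the sex term. These differences take in any sex or dose effect particular to a group, and the number of arrays limits the precision. In whole lung, fewer cells of a type and less RNA per cell cannot be told apart.

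At 3 weeks of bleomycin, 6 of the 8 genes rose in the mean over the 3 strains: Eln, Lox, Ltbp2, Loxl1, Fbln2 and Fbln5. Over all probe sets 13.7% were called in that comparison and 6.48% were called higher, and the median gene of the 8 stood at 0.49 log2 against -0.01 over all genes. Eln was higher by 1.58 ± 0.16 (log2, adjusted p = 7.36e-06) and Lox by 1.43 ± 0.12 (adjusted p = 7.96e-07). Ltbp2 was higher by 0.83 ± 0.10 (adjusted p = 4.05e-05) and Loxl1 by 0.58 ± 0.13 (adjusted p = 0.00674). Fbln2 and Fbln5 moved less, by 0.40 ± 0.11 (adjusted p = 0.0252) and 0.28 ± 0.06 (adjusted p = 0.0065), and the Fbln5 value was -0.02 when arrays were left at their deposited scaling. The calls for Fbln2 were lost without any 1 of 6 arrays (the male 3 week and male control C57BL/6 pools and each control pool of A/J and C3H/HeJ), with values of 0.30 to 0.41 and adjusted p of 0.0517 to 0.115. The calls for Loxl1 and Fbln2 were also lost with the deposited scaling (adjusted p = 0.236 and 0.563). Fbln2 was not called either when only the A/J pools at the doses of the other strains were used. The Fbln5 call was lost with the deposited scaling and with arrays scaled to 1 common median. Mfap2 and Mfap5 did not pass, at 0.02 ± 0.07 and 0.23 ± 0.14.

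**Figure D1:**
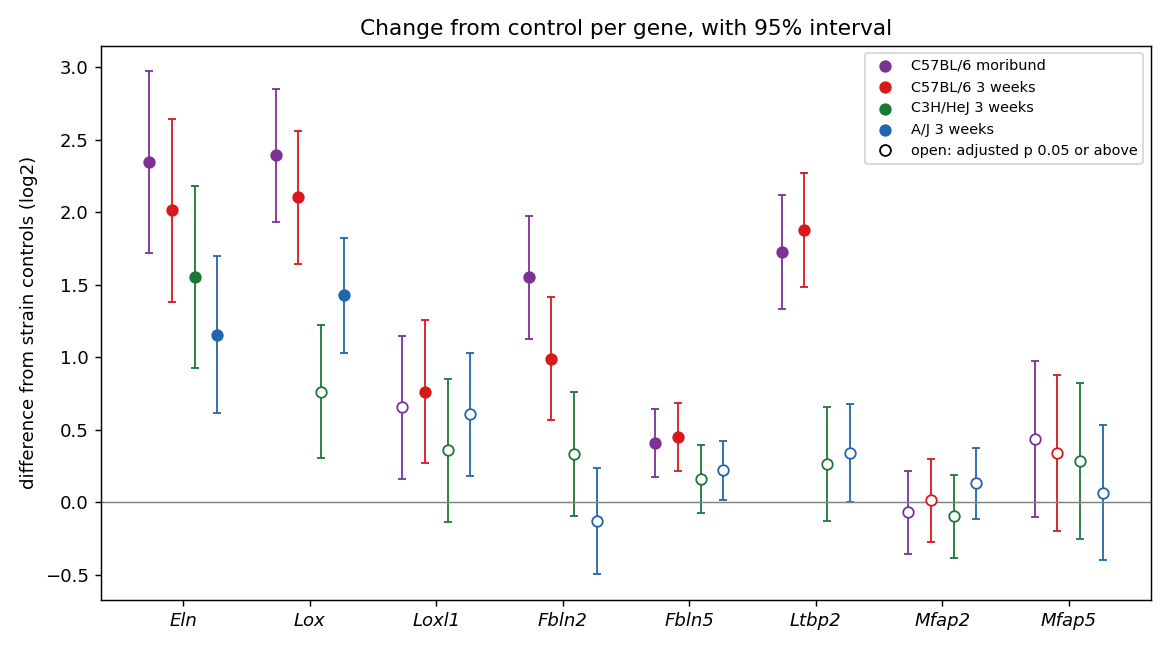
Difference from the strain's controls for each gene (log2, points with 95% intervals) in C57BL/6 moribund mice and in C57BL/6, C3H/HeJ and A/J mice at 3 weeks; filled points have an adjusted p under 0.05. C57BL/6 holds 6 filled points at 3 weeks, and Ltbp2 stands at 1.88 there, against 0.26 in C3H/HeJ and 0.34 in A/J.

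Strain by strain, most of the calls were in C57BL/6. In that strain at 3 weeks 6 of the 8 genes rose and none fell, where 5.66% of all probe sets were called higher and 10.7% were called in either direction. The arrays of the 3 week and control groups did not overlap for 7 of the 8 genes, all higher at 3 weeks, as for 29.1% of all probe sets. In A/J, 2 of the 8 genes rose (0.842% of probe sets called, 0.65% higher) and in C3H/HeJ 1 rose (1.7% called, 1.13% higher). The medians of the 8 changes were 0.88 in C57BL/6, 0.31 in C3H/HeJ and 0.28 in A/J, against 0.01, -0.03 and -0.01 over all genes in the same order of strains. The C57BL/6 calls for Fbln2, Loxl1 and Fbln5 were lost with the deposited scaling (adjusted p = 0.175, 0.297 and 0.602) and with only C57BL/6 arrays in the fit (adjusted p = 0.0865, 0.105 and 0.118).

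Eln, the structural core of the fibre (chr5:134702595-134747368, GRCm38.p6), had the widest range of group means among the brighter probe sets. In C57BL/6 its brighter probe set read 3250.3 in the male and 2850.1 in the female pool at 3 weeks, against 485 and 1131 in the male and female controls. Both treated pools lay above both controls, and the female control stood above the male one. The means were 3050 ± 283 at 3 weeks and 808 ± 457 in controls (SD, n = 2 each), a 4.04-fold difference (log2 2.01 ± 0.30, adjusted p = 3.47e-04). Against the control of the same sex the ratio was 6.52 in males and 2.50 in females.

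Eln also rose in the other strains, to lower levels. C3H/HeJ lungs read 965 and 1084 at 3 weeks, against 346 and 329 in controls, with no overlap and a difference of 1.56 ± 0.30 (log2, adjusted p = 0.011). A/J lungs read 644 and 774 in the 80 and 100 mg/kg male pools and 905 and 1590.2 in the 100 and 125 mg/kg female pools, against 366 and 446 in controls. All 4 treated A/J pools exceeded both controls, and the highest was the female pool at 125 mg/kg. The A/J difference of 1.16 ± 0.26 only just passed (adjusted p = 0.0462) and was lost without any array of the comparison other than the 80 mg/kg male pool (adjusted p of 0.0665 to 0.385). The C3H/HeJ call was lost without its male 3 week pool or either control (adjusted p of 0.0546 to 0.153), with differences of 1.33 to 1.77.

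The dimmer Eln probe set was near the floor in the controls of 2 strains. It read 356 and 468 at 3 weeks against 21.7 and 24.4 in controls in C3H/HeJ lungs, and 163 to 599 against 18 and 22.3 in A/J lungs. In C57BL/6 it read 954 and 819 at 3 weeks against 127 and 404 in controls. It thus put the 3 strains in another order of change, with 3.44 ± 0.62 in C3H/HeJ (adjusted p = 0.0081), 3.00 ± 0.54 in A/J (adjusted p = 0.0114) and 1.88 ± 0.62 in C57BL/6 (adjusted p = 0.0663). The C3H/HeJ value lost its call without either control or the female 3 week pool (adjusted p of 0.0549 to 0.0935), and the A/J value without either control (adjusted p of 0.142 to 0.157). The size of a change from intensities this close to the offset of 16 depends on the offset, and the C3H/HeJ change of Eln was 4.09 with an offset of 1 and 2.44 with 64.

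Lox, the founding lysyl oxidase (chromosome 18), rose in C57BL/6 and A/J. C57BL/6 lungs read 1516 and 1218 at 3 weeks, against 248 and 369.6 in controls. The groups were far apart, at 4.31-fold (log2 2.11 ± 0.22, adjusted p = 1.36e-05). A/J lungs read 495, 509, 522 and 499 at 3 weeks over doses from 80 to 125 mg/kg, against 181 and 175 in controls. These 4 pools differed from each other by less than the controls differed from them, and the change was 1.43 ± 0.19 (adjusted p = 7.25e-04), lost only with the deposited scaling (adjusted p = 0.0917). C3H/HeJ lungs read 441 and 584 at 3 weeks, against 353 and 243 in controls. There the groups did not overlap, but the difference of 0.76 ± 0.22 did not pass (adjusted p = 0.0931).

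The dimmer of the 2 tested Lox probe sets gave 2.65 ± 0.29 in C57BL/6 (adjusted p = 2.28e-05) and 1.81 ± 0.25 in A/J (adjusted p = 0.00113). Over the 21 arrays the paired probe sets of Lox had a Pearson r of 0.975, those of Eln 0.931 and those of Mfap5 0.859, as a description of arrays that share strains and treatment. Another Lox probe set stayed between 1.60 and 26.4 on every array and was among the dimmest 33.3% that were not tested.

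**Figure D2:**
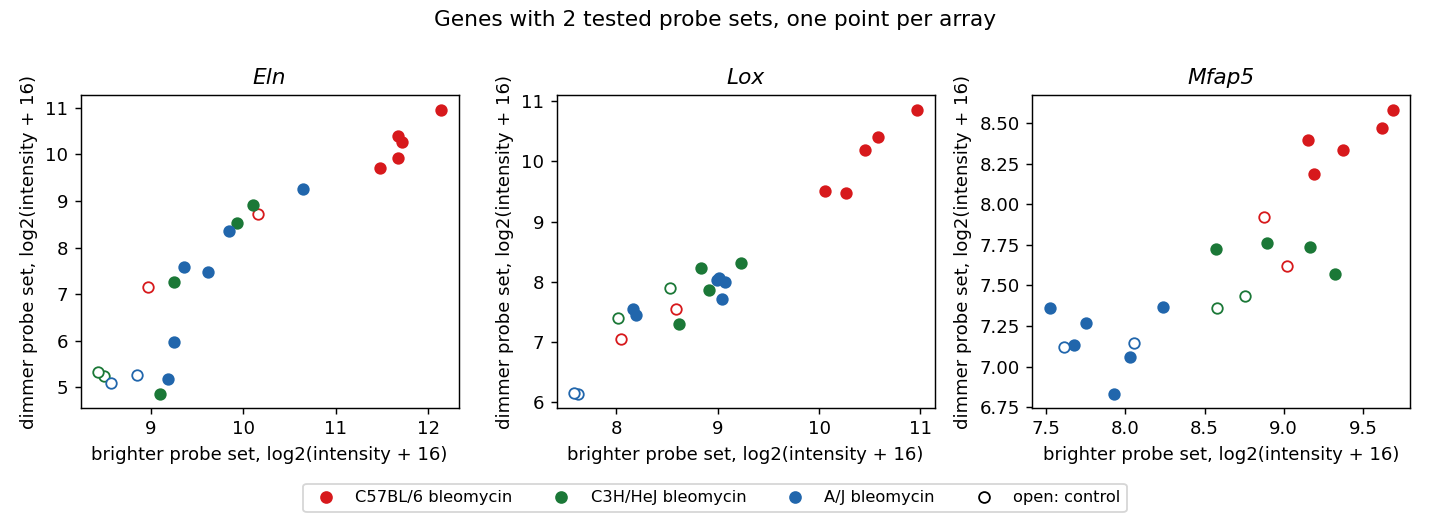
Dimmer against brighter probe set (both axes log2 of intensity + 16) for Eln, Lox and Mfap5, with 1 point per array, filled for bleomycin and open for control. The pairs follow each other closely for Lox (r = 0.975), while the dimmer Eln probe set flattens near its floor in A/J and C3H/HeJ controls.

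Loxl1, the lysyl oxidase most tied to elastin (chr9:58287723-58313212), moved less. It read 1153 and 1130.4 in C57BL/6 lungs at 3 weeks, against 501 and 883 in controls. Both treated pools lay above both controls, at 0.76 ± 0.23 (log2, adjusted p = 0.045). That call was lost without either 3 week pool or the male control, with values of 0.42 to 0.88 and adjusted p of 0.0959 to 0.45. In A/J it read 548 to 765 at 3 weeks against 448 and 411 in controls, and in C3H/HeJ 699 and 789 against 628 and 527. Neither strain's groups overlapped, and neither difference passed (0.61 ± 0.20 and 0.36 ± 0.23).

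The probe set shared by Loxl2 and Gm21451 was dim and was not tested. It read 76.9 and 57.7 at 3 weeks and 66.1 and 40.7 in moribund C57BL/6 mice, against 16.1 and 32.0 in controls. All 4 of those treated pools exceeded both controls. In A/J it lay between 4.48 and 18.1 on every array, and in C3H/HeJ between 15.5 and 44.6.

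Ltbp2, which binds fibrillin microfibrils and, unlike its relatives, not latent TGF-beta, lies at chr12:84783212-84876558. C57BL/6 lungs read 929.8 and 839 at 3 weeks, against 227 and 231 in controls. The treated pools were about equally far above controls that were nearly equal, at 3.67-fold (log2 1.88 ± 0.19, adjusted p = 9.18e-06). C3H/HeJ lungs read 371 and 281 at 3 weeks against 262 and 271 in controls, and A/J lungs 213 to 288 against 232 and 169.5. The C3H/HeJ groups did not overlap and the A/J groups did. The changes in those strains, 0.26 ± 0.19 and 0.34 ± 0.16, did not pass, and their signs turned under the deposited scaling (-0.07 and -0.02).

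Fbln2, a glycoprotein of fibres and basement membranes (chr6:91212460-91272540), showed a like pattern at lower intensity. It read 379 and 230.4 in C57BL/6 lungs at 3 weeks, against 127 and 156 in controls, which is 1.99-fold (log2 0.99 ± 0.20, adjusted p = 0.00417). The male pool was the higher one, and the call was lost without it or without the male control (0.69 and 0.76, adjusted p = 0.124 and 0.0924). In A/J it read 117 to 140.5 at 3 weeks against 151 and 138 in controls, which overlapped, and in C3H/HeJ 182 and 168 against 140.2 and 132, which did not. Neither passed, at -0.13 ± 0.17 and 0.33 ± 0.20.

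Promoter windows from RefSeq (GRCm38.p6) were at hand for Fbln2, Fbln5, Ltbp2 and Mfap2, and not for Eln, Lox, Loxl1 and Mfap5. Shown 5′ to 3′ on the gene's strand are the 250 bases before an annotated transcript start of Ltbp2 (minus strand) and Fbln2 (plus strand), which rose in C57BL/6, and of Mfap2 (plus strand), which did not pass in any comparison with controls. Capitals mark matches, on either strand, to the searched motifs AP-1 (TGANTCA), SMAD element (CAGACA), GC box (GGGCGG) and TEAD element (GGAATG).
Ltbp2 chr12:84876492-84876741: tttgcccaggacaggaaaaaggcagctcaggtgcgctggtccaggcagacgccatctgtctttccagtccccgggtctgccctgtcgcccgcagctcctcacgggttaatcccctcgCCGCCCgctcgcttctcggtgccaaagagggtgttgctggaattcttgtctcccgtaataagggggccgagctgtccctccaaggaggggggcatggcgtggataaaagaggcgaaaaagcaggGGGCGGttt
Fbln2 chr6:91212514-91212763: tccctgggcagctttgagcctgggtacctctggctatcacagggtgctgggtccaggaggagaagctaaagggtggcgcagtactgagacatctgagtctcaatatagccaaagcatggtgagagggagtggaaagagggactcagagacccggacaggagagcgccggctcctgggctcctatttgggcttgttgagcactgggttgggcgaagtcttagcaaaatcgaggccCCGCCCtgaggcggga
Mfap2 chr4:141010174-141010423: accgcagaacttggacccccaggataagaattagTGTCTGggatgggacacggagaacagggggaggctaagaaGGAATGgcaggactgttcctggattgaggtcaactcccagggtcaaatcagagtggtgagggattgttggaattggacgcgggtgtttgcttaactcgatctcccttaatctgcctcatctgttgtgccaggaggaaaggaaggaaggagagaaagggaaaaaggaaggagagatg
The Ltbp2 window held 2 GC boxes and the Fbln2 window 1, while the Mfap2 window shown held 1 SMAD and 1 TEAD element. A second Mfap2 window, before another annotated start (chr4:141010431-141010680), held 2 GC boxes and neither of the other elements, so the choice of window decides which elements are seen. The Fbln5 windows, also a pair, held 2 GC boxes in one and 1 SMAD element in the other. Among 32851 such windows of all genes, 32.7% held a GC box, 17.1% the SMAD letters, 12.6% the TEAD letters and 6.75% the AP-1 letters. No AP-1 letters were found in the windows of these 4 genes. These are matches of letters in short windows only.

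**Figure D3:**
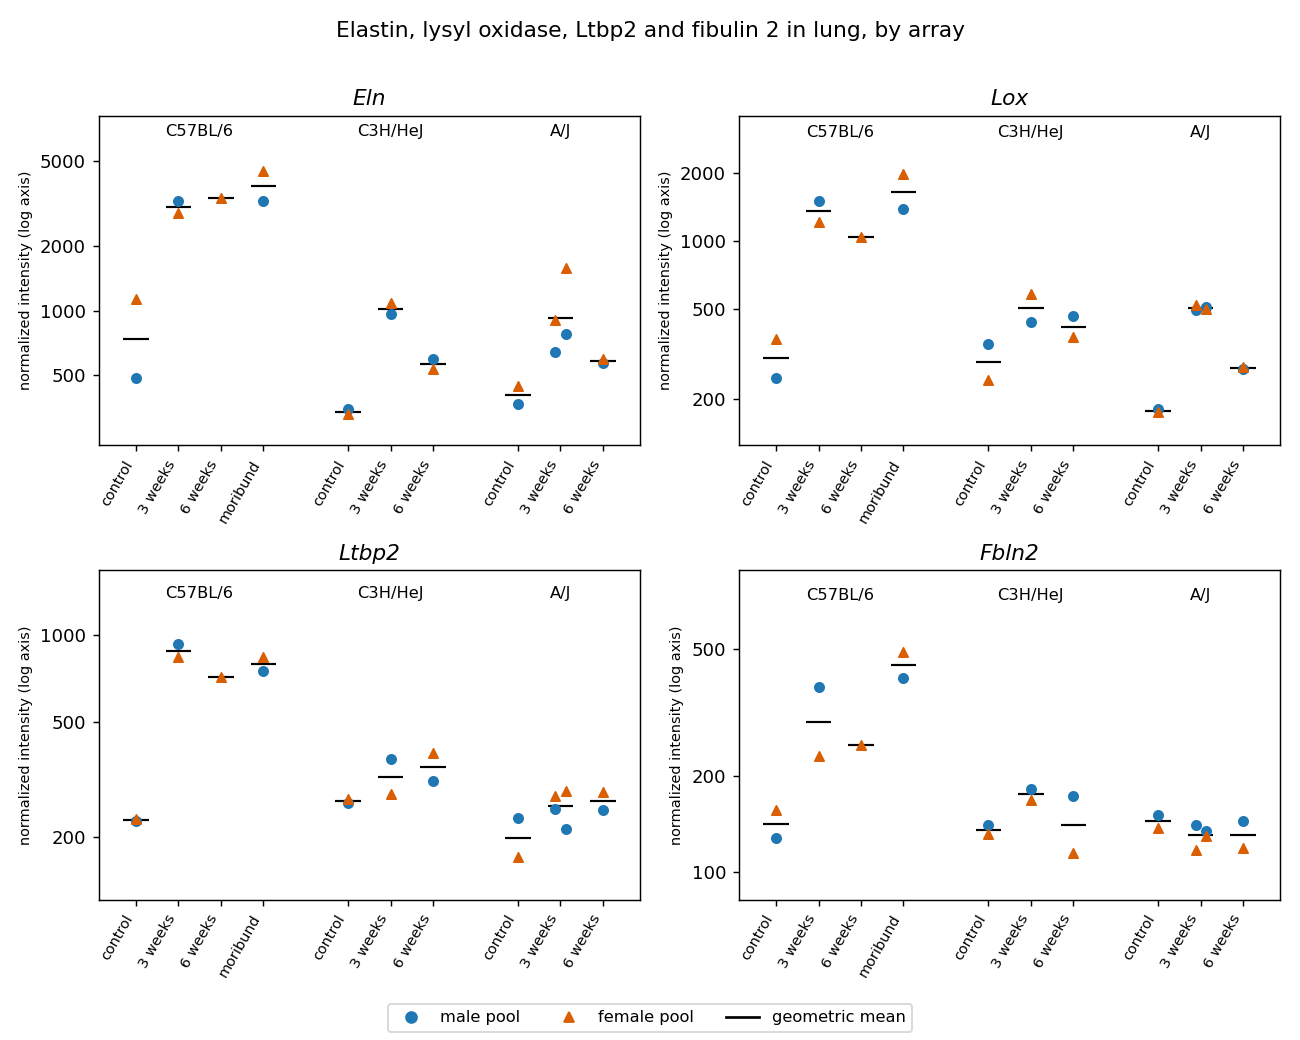
Normalized intensity (log axis) of Eln, Lox, Ltbp2 and Fbln2 on every array, by strain and stage, for male pools (circles) and female pools (triangles) with the geometric mean of each group as a line. The 5 treated C57BL/6 arrays lie above both C57BL/6 controls in each panel, with Ltbp2 at 717 to 929.8 against 227 and 231.

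Fbln5, the bridge between tropoelastin and the microfibril (chr12:101746565-101819119), differed in its baseline as well. It read 1044 and 1069 in C57BL/6 lungs at 3 weeks, against 767 and 770.2 in controls. The groups were well apart but the change was small, 1.37-fold (log2 0.45 ± 0.11, adjusted p = 0.0153), and the call was lost without any 1 of the 4 arrays (adjusted p of 0.0781 to 0.111). A/J lungs read 1178 to 1424 at 3 weeks against 1164 and 1047 in controls, and C3H/HeJ lungs 1370.2 and 1484 against 1262 and 1286. Those groups did not overlap either, with changes of 0.22 ± 0.10 and 0.16 ± 0.11 that did not pass and were negative under the deposited scaling (-0.18 and -0.26).

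The microfibril-associated proteins did not pass at 3 weeks in any strain. Mfap2 (chr4:141010424-141015976) read 456 and 588 in C57BL/6 lungs at 3 weeks, against 488 and 539 in controls. The groups overlapped, and the difference was 0.01 (log2, 95% interval -0.27 to 0.30). Mfap5 (chr6:122513584-122529290) read 570.0 and 649 against 503 and 454, with no overlap and a difference of 0.34 (95% interval -0.20 to 0.87) that did not pass. The dimmer Mfap5 probe set read 275 and 306 against 181 and 227, also without overlap. Its difference of 0.49 did not pass either (limma, adjusted p = 0.0961), though its 95% interval of 0.11 to 0.86 lay wholly above no change. For both genes these intervals leave room for modest changes.

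**Figure D4:**
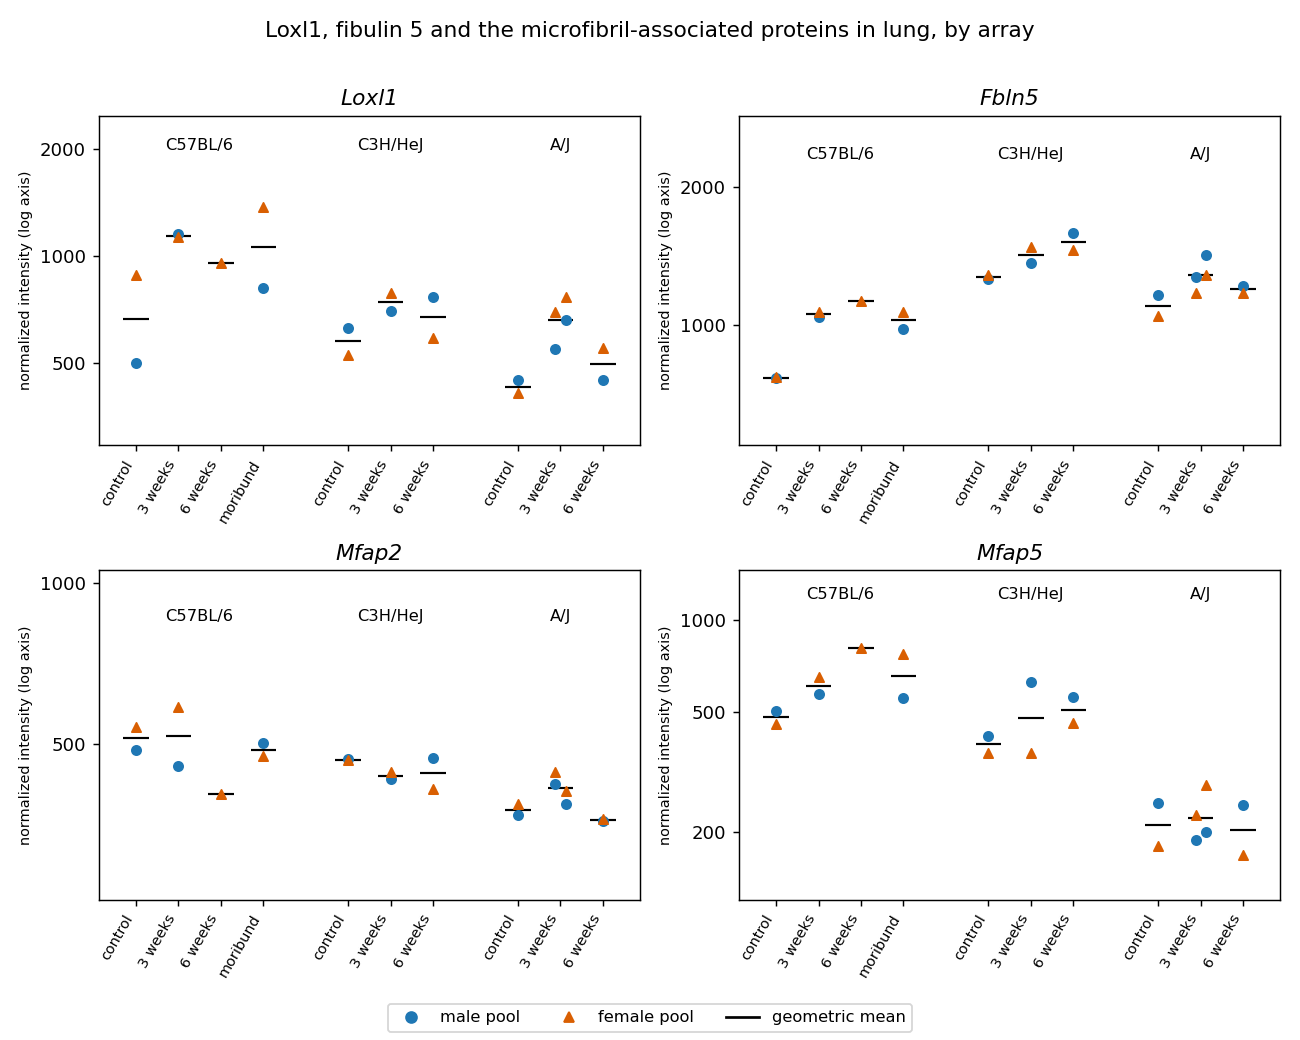
Normalized intensity (log axis) of Loxl1, Fbln5, Mfap2 and Mfap5 on every array, by strain and stage, with male pools as circles, female pools as triangles and the geometric mean of each group as a line. Mfap2 arrays of C57BL/6 at 3 weeks (456 and 588) straddle the controls (488 and 539), and Mfap5 is lowest in A/J at every stage.

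In moribund C57BL/6 mice, 5 of the 8 genes rose and none fell, where 12.8% of all probe sets were called and 5.86% were called higher, and the median of the 8 was 1.11. Eln read 3260.4 and 4514 in moribund mice, against 485 and 1131 in controls (log2 2.35 ± 0.30, adjusted p = 7.67e-05). Lox read 1387 and 1989.5, against 248 and 369.6 (2.39 ± 0.22, adjusted p = 2.91e-06). In neither gene did the groups overlap, and the female pool was the higher of the moribund pair in both. Ltbp2 read 749.6 and 841 against 227 and 231 (1.73 ± 0.19, adjusted p = 1.66e-05), and Fbln2 405 and 489 against 127 and 156 (1.55 ± 0.20, adjusted p = 8.98e-05). Fbln5 changed by 0.41 ± 0.11 (adjusted p = 0.0232), a call that was lost without either control or the female moribund pool (adjusted p of 0.11 to 0.186), and with the deposited scaling (0.13, adjusted p = 0.826), 1 common median (adjusted p = 0.109), array weights (adjusted p = 0.0537) and only C57BL/6 arrays (adjusted p = 0.129).

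Loxl1 and the microfibril proteins were not called by their brightest probe sets in moribund mice. Loxl1 read 815 and 1374, against 501 and 883 in controls, which overlapped (0.66 ± 0.23, adjusted p = 0.0765). Against the control of the same sex the ratio for Loxl1 was 1.61 in males and 1.55 in females. It passed without the male moribund pool or the female control (adjusted p = 0.0229 and 0.036). Mfap2 did not pass (-0.07 ± 0.14), nor did the brighter Mfap5 probe set (0.44 ± 0.25). The dimmer Mfap5 probe set read 321 and 338 against 181 and 227 and passed (0.66 ± 0.18, adjusted p = 0.021), though not without any 1 of the 4 arrays (adjusted p of 0.052 to 0.182). The deposited scaling ended that Mfap5 call too (0.32, adjusted p = 0.633), as did array weights and only C57BL/6 arrays (adjusted p = 0.0603 and 0.0753). None of the 8 genes was called between moribund and 3 week mice, where 0.00663% of probe sets were. Fbln2, at 0.56 ± 0.20, was the 1 gene with an unadjusted p under 0.05 there, as were 9.5% of probe sets.

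The strains were not compared with each other at 6 weeks. The single C57BL/6 pool, a female one, has no replicate check: Eln read 3359 against 1131 in the female control, Lox 1049 against 369.6, Ltbp2 717 against 231 and Fbln2 249 against 156. These ratios were 2.94, 2.76, 2.97 and 1.54. Mfap5 was highest of all groups there, at 812, and Mfap2, at 404, lay below both C57BL/6 controls.

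In C3H/HeJ and A/J no member was called between 6 weeks and controls (0.0663% and 0.0994% of probe sets called). At an unadjusted p under 0.05 limma gave 3 genes in C3H/HeJ (Eln, Lox and Fbln5, with 4.46% of probe sets) and 2 in A/J (Lox and Ltbp2, with 4.7% of probe sets). Eln read 595 and 535 in C3H/HeJ lungs at 6 weeks against 346 and 329 in controls, and 569 and 596 in A/J lungs against 366 and 446. By this brighter probe set all 4 pools were thus still above their controls, at 0.71 ± 0.30 and 0.51 ± 0.30. The dimmer Eln probe set overlapped with controls in both strains, at 0.78 ± 0.62 in C3H/HeJ and 0.40 ± 0.62 in A/J. It read 138 and 13.1 against 21.7 and 24.4 in C3H/HeJ lungs, and 20.2 and 46.5 against 18 and 22.3 in A/J lungs. Lox read 271 and 277 in A/J lungs at 6 weeks, against 181 and 175 in controls, and 465 and 377 in C3H/HeJ lungs, against 353 and 243, again without overlap. The dimmer Lox probe set went against this in C3H/HeJ, at 215 and 141 against 221 and 153, which overlapped (-0.07 ± 0.29). In A/J it read 172 and 159 against 54.4 and 54.7.

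Set against 3 weeks, both strains' 6 week means of Eln and Lox were lower, and no member was called (0.0133% of probe sets in A/J and 0.0994% in C3H/HeJ). At an unadjusted p under 0.05 limma gave Eln and Lox in A/J (4.63% of probe sets) and Eln in C3H/HeJ (14% of probe sets). Eln differed by -0.65 ± 0.26 in A/J and -0.84 ± 0.30 in C3H/HeJ. Lox differed by -0.85 ± 0.19 in A/J (adjusted p = 0.486) and -0.27 ± 0.22 in C3H/HeJ. The C3H/HeJ groups of Lox overlapped, with 465 and 377 at 6 weeks against 441 and 584 at 3 weeks. There the male pool was higher at 6 weeks. The dimmer Eln probe set read 138 and 13.1 in C3H/HeJ at 6 weeks against 356 and 468 at 3 weeks, and the array at 13.1 was the one with the highest Gapdh ratio. The part of RNA quality in that value was not tested. In A/J the dimmer Eln probe set read 20.2 and 46.5 at 6 weeks against 163 to 599 at 3 weeks, without overlap. The Gapdh ratios of those A/J 6 week arrays were 1.07 and 0.946. By that probe set the differences were -2.60 ± 0.54 in A/J and -2.67 ± 0.62 in C3H/HeJ, neither of them called.

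Whether the rise was larger in C57BL/6 was tested as the difference of the 3 week changes. Ltbp2 rose more in C57BL/6 than in A/J by 1.54 ± 0.24 (log2, adjusted p = 0.00739) and than in C3H/HeJ by 1.61 ± 0.26 (adjusted p = 0.021). It was the 1 of the 8 genes called in each of these comparisons, which share the C57BL/6 arrays, where 1.07% and 0.152% of all probe sets were called. Leaving out the male 3 week C57BL/6 pool ended both calls (adjusted p = 0.0805 and 0.158), and so did, against A/J, the A/J male control (adjusted p = 0.0691). Against C3H/HeJ the call was also lost without either C57BL/6 control, either C3H/HeJ control or the C3H/HeJ female 3 week pool (adjusted p of 0.0685 to 0.105). The deposited scaling ended both calls (adjusted p = 0.103 and 0.214), at larger differences. Leaving out each array in turn, the Ltbp2 difference ran from 1.29 to 1.79 against A/J and from 1.39 to 1.84 against C3H/HeJ.

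The same test did not separate the strains for Eln or Lox. Eln differed by 0.86 (95% interval 0.02 to 1.69, adjusted p = 0.345) between C57BL/6 and A/J, and by 0.46 (-0.43 to 1.35) between C57BL/6 and C3H/HeJ. The dimmer Eln probe set had the opposite sign in both, at -1.12 ± 0.83 (adjusted p = 0.605) and -1.57 ± 0.88 (adjusted p = 0.443). Lox differed by 0.68 (0.07 to 1.28, adjusted p = 0.30) and 1.34 (0.70 to 1.99, adjusted p = 0.089). Its dimmer probe set gave 0.84 ± 0.38 (adjusted p = 0.344) and 2.02 ± 0.41 (adjusted p = 0.0565). Fbln2 came near the threshold against A/J, at 1.12 ± 0.27 (adjusted p = 0.0536). Between C3H/HeJ and A/J no member was called, nor was any probe set (0%), and 1 member, Lox, had an unadjusted p under 0.05, with 3.43% of probe sets.

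Control lungs already differed by strain. Fbln5 was lower in C57BL/6 controls (767 and 770.2) than in C3H/HeJ controls (1262 and 1286) and A/J controls (1164 and 1047). The differences were -0.72 ± 0.11 (adjusted p = 0.00155) and -0.51 ± 0.11 (adjusted p = 0.0182). The difference from A/J was not called without any 1 of the 4 arrays (adjusted p of 0.0523 to 0.223), and neither was called under the deposited scaling. At 3 weeks C57BL/6 Fbln5 (1044 and 1069) still lay below every A/J and C3H/HeJ treated array.

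Mfap5 ran the other way, at 503 and 454 in C57BL/6 controls against 249 and 179 in A/J controls (1.12 ± 0.25, adjusted p = 0.0223), again lost without any 1 array (adjusted p of 0.068 to 0.199). These were the 2 members called among 3.17% of probe sets between C57BL/6 and A/J controls, and Fbln5 the 1 among 2.5% between C57BL/6 and C3H/HeJ controls. No gene was called by its brighter probe set between A/J and C3H/HeJ controls (1.01% called), with 4 at an unadjusted p under 0.05, as for 6.58% of probe sets. By dimmer probe sets, Eln was higher in C57BL/6 than in A/J controls (2.76 ± 0.62, adjusted p = 0.0214) and C3H/HeJ controls (2.65 ± 0.62, adjusted p = 0.0319). Lox was higher in C57BL/6 than A/J controls (1.15 ± 0.29, adjusted p = 0.0396) and lower in A/J than C3H/HeJ controls (0.352-fold, adjusted p = 0.0142). Each of these 4 calls was lost without 3 or 4 of its 4 arrays in turn (adjusted p of 0.0554 to 0.39).

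Over the 10 groups, Eln stood in the order C57BL/6 moribund, 6 weeks and 3 weeks, C3H/HeJ 3 weeks, A/J 3 weeks, C57BL/6 control, A/J 6 weeks, C3H/HeJ 6 weeks, A/J control and C3H/HeJ control. No other array (highest 1590.2) reached the treated C57BL/6 groups (lowest 2850.1), whereas each group from C3H/HeJ 3 weeks down to C3H/HeJ 6 weeks overlapped the next in order. Lox had the same 5 groups at the top, with 6 weeks and 3 weeks of C57BL/6 exchanged, and A/J control at the bottom. For Ltbp2 the 3 treated C57BL/6 groups (717 to 929.8) stood above all other arrays (169.5 to 391), among which every neighbouring pair of groups overlapped. For Mfap2 every array lay between 359 and 588, with C57BL/6 3 weeks, control and moribund at the top and A/J control and 6 weeks at the bottom.

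The genes whose 10 group means (log2) followed Eln most closely, of 9071 compared, were Tnfsf9 (Pearson r = 0.986), Pvr (0.977), C1qb (0.977), Ifngr2 (0.974) and Col1a1 (0.972). For Lox they were Fcer1g (0.979), Timp1, Trim16 and Osmr (0.976 each) and Col5a2 (0.975). Among the members themselves, Lox followed Loxl1 (0.967), Eln (0.954) and Ltbp2 (0.953), while Fbln5 had -0.10 with Lox. These 10 points share strains and arrays, and the C57BL/6 groups set much of their range.

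Other genes of the fibre did not rise as a group. Of 14 tested genes of elastic fibres and microfibrils outside the list, 2 rose in C57BL/6 at 3 weeks (Vcan and Mfge8), 2 fell (Ltbp4 and Fbln1), and the median was -0.11. Vcan, a large proteoglycan that binds fibulins and fibrillin, was higher by 1.70 ± 0.27 (adjusted p = 6.92e-04). Ltbp4, which is needed for elastin deposition in mouse lung, was lower by -1.56 ± 0.28 (adjusted p = 0.00158), with means of 483 at 3 weeks and 1443 in controls. So 1 latent TGF-beta binding protein rose while another fell.

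Of 11 helpers of cross-linking and other lysyl oxidases, 2 rose (Fn1 and Fmod) and 2 fell (Pcolce2 and Tnxb), with a median of 0.08. Fn1, fibronectin, which binds the lysyl oxidase precursor, was higher by 1.67 ± 0.18 (adjusted p = 1.93e-05). Pcolce2, a procollagen C-proteinase enhancer, was lower by -2.19 ± 0.18 (adjusted p = 1.71e-06), with means of 257 at 3 weeks and 1220 in controls.

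Of the fibrillar collagens, the other substrate of Lox, 5 of 6 tested rose in C57BL/6 (median 0.98), led by Col5a2 at 1.88 ± 0.18 (adjusted p = 6.36e-06). All 6 rose in the mean over the strains (median 0.66). In C3H/HeJ, where Lox was not called, 3 of the 6 rose (Col5a2, Col1a1 and Col1a2, list median 0.83). In A/J, where Lox was called, Col5a2 alone passed (list median 0.44). The difference of the 3 week changes between C3H/HeJ and A/J was not called for any of the 6 collagens, nor for Lox. The list of elastin-degrading enzymes was drawn broadly, with lysosomal proteases such as Ctsb and Ctsd on it. Of its 9 tested members 8 rose in C57BL/6, and the median of the 9 was 1.26. Mmp9 did not rise (means of 110 at 3 weeks and 126 in controls), and Elane, Prtn3, Ctsg and Mmp7 were too dim to test. The macrophage elastase Mmp12 was higher by 3.27 ± 0.49 (adjusted p = 3.71e-04) and the lysosomal protease Ctsd by 1.43 ± 0.14 (adjusted p = 1.17e-05). Of 10 tested inhibitors, 2 rose, namely Timp1 by 3.36 ± 0.26 (adjusted p = 1.21e-06) and Serpina3n by 2.84 ± 0.28 (adjusted p = 8.85e-06), with a median of 0.23. Over all genes the median was 0.01.

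**Figure D5:**
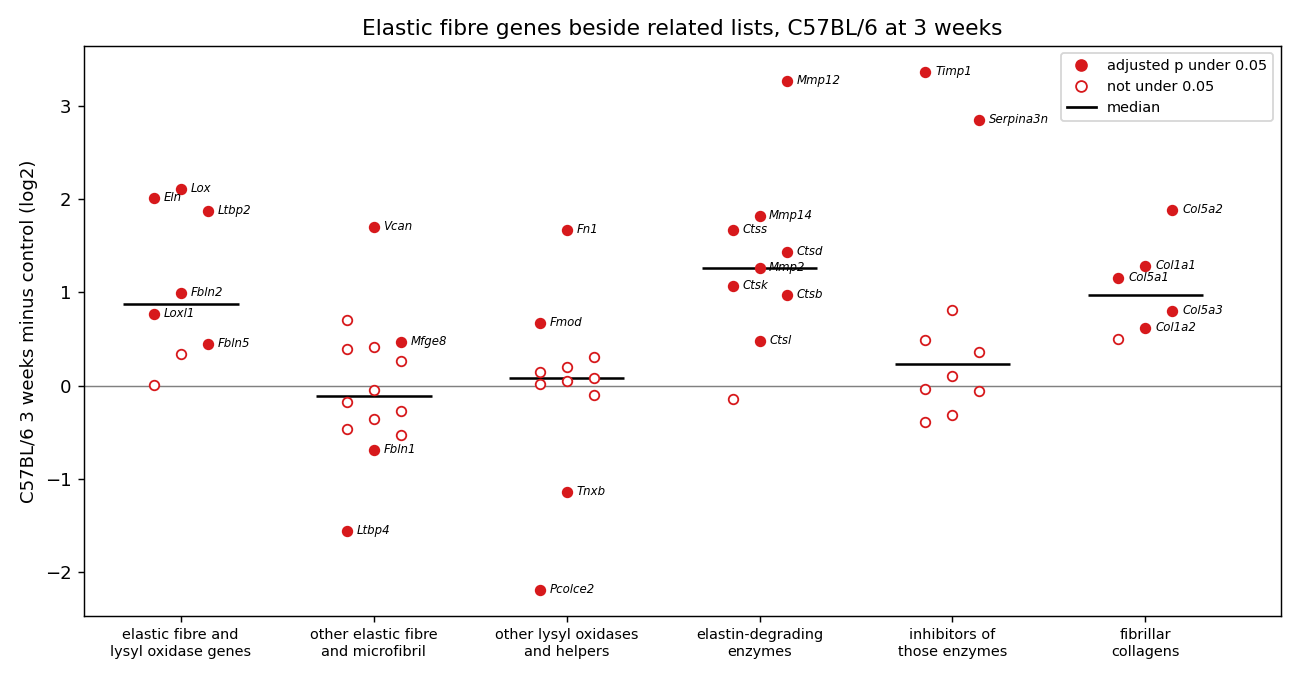
Difference between C57BL/6 at 3 weeks and control (log2) for each tested gene of the elastic fibre set and of 5 related lists, filled where the adjusted p was under 0.05, with each list's median as a line. Medians run from -0.11 (other elastic fibre genes) to 1.26 (elastin-degrading enzymes), beside 0.88 for the elastic fibre and lysyl oxidase genes.

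Few markers of the cells that make elastin passed the test. In C57BL/6 at 3 weeks 1 of 8 fibroblast markers rose (Col1a2) and 1 fell (Dcn). The summed level of the 8 was 5372 to 5592 at 3 weeks against 5480 to 5497 in controls. Within that sum the mean of Col1a2 was 2875 at 3 weeks against 1867 in controls, and that of Dcn 464 against 1185. None of 7 tested smooth muscle markers passed, with sums of 3826 to 3876 against 3622 to 3894. Of 3 tested myofibroblast markers 1 rose (Tnc). In moribund mice 1 fibroblast marker rose (Col1a2) and 1 fell (Tcf21), with a list median of -0.20. Their fibroblast sum was 6066 to 6676, of which Col1a2 made up a mean of 3600, against 1867 in controls. Of the 7 smooth muscle markers 2 fell in moribund mice (Cnn1 and Myh11) and none rose. The same 2 fell in the mean over strains at 3 weeks, and Cnn1 fell in A/J. In the mean over strains 1 fibroblast marker rose (Col1a2) and 2 fell (Lum and Dcn).

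Markers of other cell types moved with the rise. In C57BL/6 at 3 weeks 4 of 6 macrophage markers rose (sum 9514 to 10710 against 7911 to 8376 in controls). In the same comparison 6 of 7 endothelial markers fell (3146 to 4352 against 6449 to 6545) and 5 of 6 cardiac muscle markers fell (1420 to 1947 against 4026 to 4153). Both tested adipocyte markers fell as well (median -1.96), as did 2 of 4 type 2 alveolar markers, Sftpa1 and Sftpb (15123 to 15179 against 18466 to 19716). In moribund mice 4 of 6 macrophage markers rose, while 6 of 7 endothelial, 5 of 6 cardiac, 3 of 4 type 2 and 1 of 2 adipocyte markers fell. Cardiac markers also fell in C3H/HeJ (4 of 6), in A/J (3 of 6) and in the mean over strains (6 of 6) at 3 weeks, and macrophage markers rose in C3H/HeJ (3 of 6) and in that mean (4 of 6), but none of 6 passed in A/J. Their part in the results was not tested.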

How the data were processed

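The labels record Trizol extraction, pooling of RNA and standard Affymetrix hybridisation. The authors deposited 1 intensity per probe set and array on a linear scale. The software and scaling behind it were not given in the sources used here. Of 22690 probe sets, 64 controls were left out. The array annotation gave 20380 probe sets 1 symbol, 691 several and 1555 none, and 20351 of the first were matched to a gene table (GRCm38.p6) by gene ID. Intensities were quantile normalized and turned to log2 of the value plus 16. The dimmest 33.3% by mean over all arrays were dropped, which kept 15084. Groups were strain by stage (10), and limma 3.58.1 in R 4.3.3 was fitted over all arrays with sex as a term (10 residual degrees of freedom, 16.4 after shrinkage), for 16 comparisons, with Benjamini-Hochberg adjustment over all 15084 within each. The fit was tested on simulated data. Sex-linked transcripts matched the labelled sex on all 21 arrays. The labels name no batch.

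A gene is described by its probe set with the highest mean over all arrays, and its other probe sets are named apart. Of the lists, up to 4 called genes with the smallest p were named. Likeness is Pearson r over the 10 group means. The members, lists and tests were chosen with earlier results of these data known. The test plan spoke of 10 genes, of which 8 could be used. Alternatives were other scaling, offsets of 1 and 64, filters, no sex term, only the strains compared, 1 probe set per gene, array weights, A/J at matched doses and leaving out each array. Sequences and coordinates are RefSeq's (GRCm38.p6), and motifs were searched on both strands.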

Additional observations from a re-analysis of the deposited data

Results flagged for a closer look

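The dimmer of the 2 tested Lox probe sets had 1 array far from the others of its group. In A/J at 3 weeks the male pool at 100 mg/kg read 193, and the other 3 pools read 239.7 to 250.1. Its gap was 0.834 of the group's range on the log2 scale, past Dixon's 95% critical value for 4 samples. Chance marks about 1 in 20 groups in this way. The brighter Lox probe set read 509 on that array, inside the range of the group.

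The 3 week change of Ltbp2 was called as different between strains. It was larger in C57BL/6 than in A/J by 1.54 (log2, adjusted p = 0.00739) and larger in C57BL/6 than in C3H/HeJ by 1.61 (adjusted p = 0.021), both by limma's test of the difference itself. The 2 comparisons share the C57BL/6 arrays. Both calls were lost with the deposited scaling, and the call against C3H/HeJ also with only the strains compared in the fit. Their dependence on single arrays is given above.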

How the results depend on the processing

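No paired analysis was possible because the labels number no replicates and pools hold different mice. Values are numbers of the 8 genes called. With the deposited scaling 3 were called (6 otherwise) in the mean over strains and in C57BL/6 at 3 weeks, 0 in A/J (2 otherwise) and C3H/HeJ (1 otherwise), 0 in either comparison of C57BL/6 with another strain's change (1 otherwise), and 1 (2 otherwise) and 0 (1 otherwise) between C57BL/6 and A/J or C3H/HeJ controls. That scaling moved the median of all probe sets to -0.27 in the mean over strains, -0.18 in C57BL/6, -0.34 in A/J, -0.30 in C3H/HeJ and -0.28 in moribund mice. Over all probe sets it called 467 in C57BL/6 at 3 weeks (1614 otherwise). With only the strains compared in the fit, which leaves fewer arrays, 3 were called in C57BL/6 at 3 weeks, 1 between 6 and 3 weeks in A/J (0 otherwise), and 0 for the change in C57BL/6 against C3H/HeJ. With 1 common median, A/J gave 1, C57BL/6 against each other strain's change 2, and C57BL/6 against A/J controls 1. A/J gave 1 with no filter and with no sex term. The change in C57BL/6 against A/J gave 2 with an offset of 64, the lower 50% dropped, 1 probe set per gene, array weights, or the C3H/HeJ female 6 week array left out, the last chosen after seeing the data. Array weights gave 4 between C57BL/6 and A/J controls, 2 between C57BL/6 and C3H/HeJ controls and 1 between A/J and C3H/HeJ controls (0 otherwise). The causes were not tested.

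Leaving out each array in turn gave 5 to 6 in the mean over strains, 3 to 5 in C57BL/6 at 3 weeks, 1 to 2 in A/J, 0 to 1 in C3H/HeJ, 4 to 6 in moribund mice, 0 to 2 and 0 to 1 for the C57BL/6 change against A/J and C3H/HeJ, 1 to 2 between C57BL/6 and C3H/HeJ controls, and 0 in the other comparisons, among them C57BL/6 and A/J controls. Where that left 1 array in a group, it was assumed to vary like the other groups. By the brightest probe set of each gene, Lox, Ltbp2 and Eln in C57BL/6 at 3 weeks and in moribund mice, and Fbln2 in moribund mice, were called under every alternative run. The dimmer Eln probe set was not called in C57BL/6 at 3 weeks. In moribund mice it was called, at 2.74 ± 0.62 (limma, adjusted p = 0.0084). That call was lost without the male control (2.07) or the female moribund pool (2.61). Signs turned for values that did not pass and for Fbln5 in the mean over strains. With the deposited scaling, in the mean over strains, Fbln5 was -0.0228, Mfap2 -0.28 and Mfap5 -0.054. With it, Mfap2 was -0.10 in C57BL/6 at 3 weeks. In A/J, Fbln5 was then -0.18, Mfap2 -0.26, Ltbp2 -0.0211 and Mfap5 -0.30. In C3H/HeJ, Fbln5 was then -0.26, Ltbp2 -0.0692, Mfap5 -0.0911 and Loxl1 -0.0531. With 1 common median, Mfap2 was -0.0227 in the mean over strains and Fbln5 -0.0389 in C3H/HeJ. Mfap2 in the mean over strains was -0.004 with A/J at matched doses. Leaving out each array, Mfap2 ran from -0.0416 to 0.0716 in the mean over strains, from -0.157 to 0.183 in C57BL/6 at 3 weeks and from -0.14 to 0.0042 in moribund mice, and Mfap5 from -0.128 to 0.262 in A/J and from -0.0861 to 0.653 in C3H/HeJ. Of 58 gene values, 38 called, 870 alternatives kept direction and side of the threshold, 103 lost the call, 2 gained it and 23 turned sign.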
